A study of Homo sapiens with 4 samples.

Results

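NRF2 is a transcription factor that switches on genes for antioxidant defence. In resting cells the adaptor KEAP1 hands NRF2 to a ubiquitin ligase for degradation. Oxidants and electrophiles disable KEAP1, and NRF2 then binds antioxidant response elements next to its target genes. A549 is a human lung adenocarcinoma line widely known to carry a loss-of-function KEAP1 mutation, so its NRF2 is active without stress, whereas NCI-H358, a human bronchioloalveolar carcinoma line, is generally used as a KEAP1 wild-type line. The labels do not give the KEAP1 state.

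The genes described are 9 NRF2 targets that supply glutathione, thioredoxin reduction and NADPH: NQO1, GCLC, GCLM, TXNRD1, SRXN1, GPX2, SLC7A11, PGD and ME1. They were chosen by name, with earlier results of these arrays known. All single-symbol probe sets of these genes were taken, 23 of the 41091 probe sets annotated to 1 gene, and the 9 genes stand among 19775 with such a probe set. A gene or probe set counted as measured when any of the 4 arrays had a deposited signal of 27 or more, which is the 60th percentile over the whole table. By that filter 17 of the 23 probe sets and all 9 genes were measured, but GPX2 passed through A549 alone.

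RNA came from 4 cultures, each hybridised to an Affymetrix array: A549 with empty vector, A549 with CHST11, NCI-H358 with empty vector and NCI-H358 with CHST11. All 4 were stably transduced and antibiotic-selected, including the empty vector controls, and CHST11 is a Golgi enzyme that sulfates chondroitin chains. The labels do not say whether a culture was a clone or a pool. Each group had a single array, and this small number limits the precision of every value.

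The vector was visible at CHST11 probe set 219634_at, with signals of 129 and 344 in A549 and 220.1 and 1058 in NCI-H358 (empty vector, then CHST11). The other 2 CHST11 probe sets had log2 ratios between -0.16 and 0.14. CDKN2A, deleted in A549, had signals of 18.4 and 23.9 there and of 668 and 804 in NCI-H358. MTAP, its deleted neighbour, was under the filter in A549 at 3 of 4 measured probe sets, while 211363_s_at read 113 and 132 there and 57.6 and 53.4 in NCI-H358. All 6 epithelial markers were measured, and of other cell types 2 of 5 leukocyte, 1 of 6 fibroblast and 1 of 6 endothelial markers were. The epithelial markers disagreed between the lines, with 2 called higher and 3 lower in A549. EPCAM, KRT19 and CDH1 were 31.9-fold, 20.3-fold and 4.69-fold higher in NCI-H358, and KRT8 and KRT18 2.60-fold and 2.17-fold higher in A549. The measured fibroblast marker, COL1A1, read 153 to 170. Summed leukocyte marker signal was 50.8 to 83.7 per array, fibroblast 209 to 232 and endothelial 81.0 to 91.2, with PTPRC at 3.52 to 3.84 and CDH5 at 4.49 to 5.48. Array medians were 15.9 to 16.3, and log2 signals correlated with r = 0.996 within each line and 0.938 to 0.939 between lines.

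Stretches upstream of 5 of the 9 genes are shown because they hold the core of the antioxidant response element, the sequence through which NRF2 acts. RefSeq promoter windows on GRCh38.p14 run from 250 bases before to 50 bases after a gene start, and 8 of the 9 genes had such a window, TXNRD1 with 2. The core TGACNNNGC was searched on both strands. It can overlap the AP-1 motif TGACTCA. Each stretch is written 5′ to 3′ on the strand of its gene. Capitals mark the core, shown as its reverse complement where it lies on the opposite strand, and positions count back from the base before the start.
GPX2, chr14:64942834-64942892, minus strand, core at -122 to -114 on the opposite strand: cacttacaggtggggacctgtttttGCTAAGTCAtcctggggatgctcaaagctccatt
GCLM, chr1:93909431-93909489, minus strand, core at -34 to -26 on the opposite strand: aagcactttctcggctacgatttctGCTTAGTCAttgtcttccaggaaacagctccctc
TXNRD1 upstream start, chr12:104215655-104215713, plus strand, core at -99 to -91: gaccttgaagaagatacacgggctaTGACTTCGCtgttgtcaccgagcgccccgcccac
TXNRD1 downstream start, chr12:104286905-104286963, plus strand, core at -102 to -94 on the opposite strand: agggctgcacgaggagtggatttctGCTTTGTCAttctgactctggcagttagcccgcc
ME1, chr6:83431155-83431213, minus strand, core at -137 to -129: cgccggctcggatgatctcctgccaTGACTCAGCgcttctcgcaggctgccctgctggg
PGD, chr1:10398838-10398896, plus strand, core at -201 to -193 on the opposite strand: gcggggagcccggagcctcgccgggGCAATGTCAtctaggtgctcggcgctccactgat

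A core was therefore present for 5 of the 8 genes with a window. Of all 35116 windows, 13.3% held it. The ME1 core contains the letters of the AP-1 motif. TXNRD1 and ME1 each had a further core at or after the start, at -8 to 1 and at 12 to 20. The windows of NQO1, GCLC and SRXN1 did not hold these letters.

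All 9 genes had more signal in A549 than in NCI-H358. The differences ran from 1.56-fold for TXNRD1 to at least 120.5-fold for GPX2. The limma fit, with a term for the vector, called all 9 higher in A549 at a Benjamini-Hochberg adjusted p of 0.05, where 30.6% of the 12288 genes tested were called higher and 34% lower. GPX2 was tested only because of its A549 signal, so its call adds no support. The other 8 genes were measured in both lines and all 8 were called higher, against 28.4% of the 10565 genes measured in both lines called higher and 32.6% called lower. The median log2 difference of those 8 was 1.07, against -0.03 over the 10565. By size, 5 of the 9 were at least 2-fold higher in A549 with both vectors (GPX2, SLC7A11, PGD, SRXN1 and GCLC), against 10.4% of all genes, and 3 (GPX2, SLC7A11 and PGD) were at least 4-fold higher, against 3.7%. Both A549 arrays lay above both NCI-H358 arrays for all 9 genes, as they did for 40.8% of all genes tested. Among genes measured in both lines, 4 of 8 were at least 2-fold higher with both vectors against 7.6%, 2 of 8 at least 4-fold higher against 1.68%, and 8 of 8 did not overlap against 39.5%.

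The p-values measure only the spread among these 4 arrays, in which the 2 cultures of a line stand in for replicates, and 1 line of each kind cannot tell KEAP1 status apart from any other difference between the lines. With no signal filter the fit called 3 of the 9, and NQO1, GCLC, GCLM, TXNRD1, SLC7A11 and ME1 had limma adjusted p-values of 0.0656 to 0.108.

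**Figure D1:**
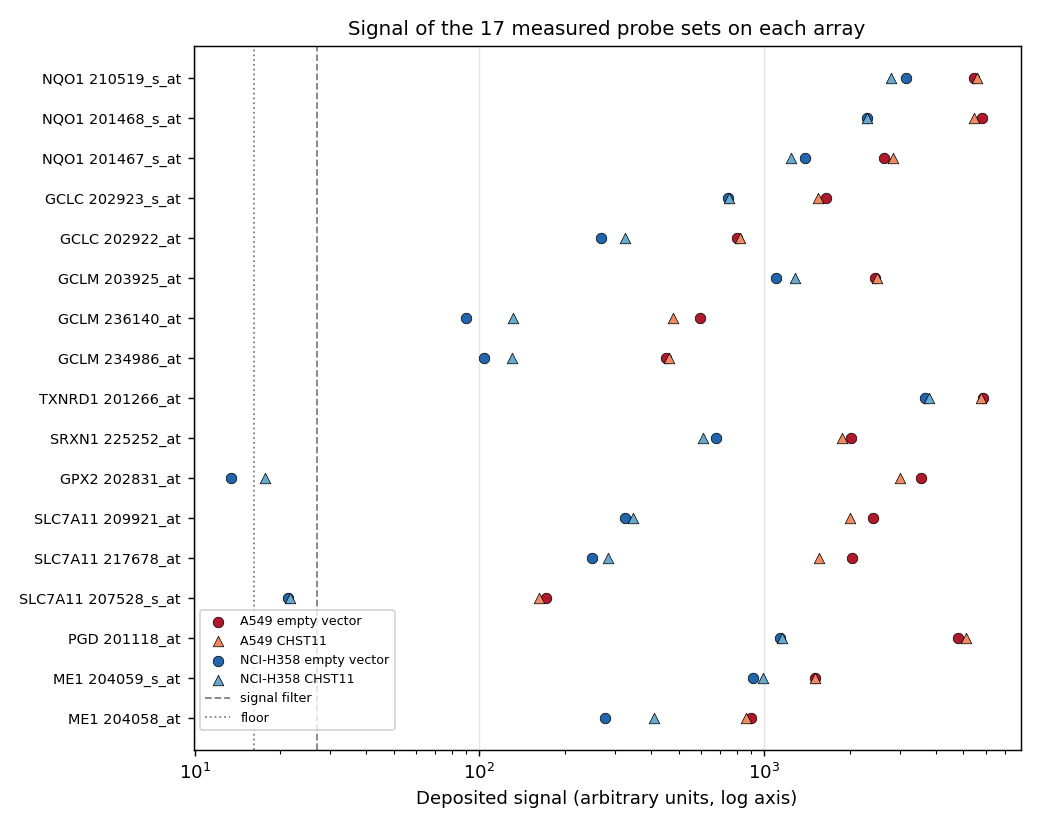
Deposited signal (arbitrary units, log axis) of the 17 measured probe sets on the 4 arrays, red for A549 and blue for NCI-H358, circles for the empty vector and triangles for CHST11; lines mark the floor of 16.14 and the filter of 27. Every red point lies to the right of both blue points of its row, and GPX2 in NCI-H358 lies under the filter.

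Glutathione peroxidase 2 showed the widest gap of the 9. GPX2 is a selenium-dependent peroxidase of epithelial cells that spends glutathione on hydroperoxides. Its probe set 202831_at read 3544 with the empty vector and 2988 with CHST11 in A549, and 13.4 and 17.7 in NCI-H358. The NCI-H358 arrays were under the filter, so only a bound can be given, and A549 was at least 120.5-fold higher. The second GPX2 probe set, 239595_at, was under the filter on all 4 arrays, at 18.5 and 18.6 in A549 and 5.55 and 6.61 in NCI-H358.

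The cystine transporter followed. SLC7A11 is the light chain of system xc-, which exchanges glutamate for the cystine that limits glutathione synthesis. Probe set 209921_at read 2415 and 2001 in A549 (empty vector, then CHST11) and 325 and 346 in NCI-H358, 6.56-fold apart (log2 2.71, SE 0.12, limma adjusted p = 0.00014). Probe set 217678_at read 2034 and 1559 in A549 against 249 and 282 in NCI-H358, a 6.72-fold difference. The dimmest, 207528_s_at, read 171 and 161 in A549 and 21.4 and 21.7 in NCI-H358, at least 6.15-fold apart. The 2 SLC7A11 probe sets measured in both lines thus gave log2 differences of 2.71 and 2.75, while the dimmest gave only a bound.

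Both subunits of glutamate-cysteine ligase, the enzyme of the rate-limiting step of glutathione synthesis, were higher in A549, by a similar factor at their brightest probe sets. GCLC, the catalytic subunit, read 1652 and 1544 in A549 and 746 and 755 in NCI-H358 at probe set 202923_s_at (2.13-fold, log2 1.09, SE 0.09, limma adjusted p = 0.000745). At 202922_at it read 800 and 824 against 267 and 325, a 2.75-fold difference. GCLM, the modifier subunit that raises the activity of the catalytic one, read 2443 and 2487 in A549 and 1102 and 1280 in NCI-H358 at 203925_at (2.08-fold, log2 1.05, SE 0.10, limma adjusted p = 0.00101).

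The size of the GCLM difference depended on the probe set. At 236140_at the signals were 593 and 479 in A549 and 89.5 and 132 in NCI-H358, 4.91-fold apart. At 234986_at they were 451 and 461 against 103 and 130, 3.93-fold apart. In both, as in 203925_at, the lines did not overlap. The log2 difference between lines therefore ran from 1.05 to 2.30 for GCLM. Over 4687 genes the SD between probe sets of a gene in the line difference was 0.38. A range and an SD are unlike measures, so GCLM is not shown to be unusual.

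The 2 genes of the thioredoxin arm differed by unequal amounts. TXNRD1, the cytosolic selenoenzyme that reduces thioredoxin with NADPH, read 5858 and 5751 in A549 and 3681 and 3783 in NCI-H358 at 201266_at. That was 1.56-fold (log2 0.64, SE 0.09, limma adjusted p = 0.00344), the smallest difference of the 9 genes but within its error of that of ME1, and it rested on 1 measured probe set. SRXN1, sulfiredoxin, which restores overoxidised peroxiredoxins, read 2011 and 1874 in A549 and 676 and 608 in NCI-H358 at its only probe set, 225252_at. SRXN1 was 3.03-fold higher in A549 (log2 1.60, SE 0.09, limma adjusted p = 0.000231).

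Of the NADPH-producing enzymes, PGD differed more than ME1. PGD, the 6-phosphogluconate dehydrogenase of the pentose phosphate pathway, read 4777 and 5112 in A549 and 1140 and 1156 in NCI-H358 at 201118_at, 4.30-fold apart (log2 2.11, SE 0.09, limma adjusted p = 0.00012). Its other 2 probe sets lay between 14.1 and 19.2 on all arrays. ME1, cytosolic malic enzyme, read 1512 and 1506 in A549 and 912 and 991 in NCI-H358 at 204059_s_at (1.59-fold, log2 0.67, SE 0.09, limma adjusted p = 0.00338). At 204058_at ME1 read 901 and 861 in A549 and 276 and 411 in NCI-H358, 2.62-fold apart.

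NQO1 is a quinone reductase that spends NADPH to reduce quinones in a single step, and is the classical readout of NRF2 activity. Probe set 210519_s_at read 5462 and 5606 in A549 and 3138 and 2791 in NCI-H358 (1.87-fold, log2 0.90, SE 0.10, limma adjusted p = 0.00168). At 201468_s_at the signals were 5818 and 5456 against 2286 and 2297, 2.46-fold apart. At 201467_s_at they were 2634 and 2825 against 1391 and 1239, 2.08-fold apart. NQO1 was thus strongly detected in NCI-H358 too, unlike GPX2, and its line difference stayed between log2 0.90 and 1.30.

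**Figure D2:**
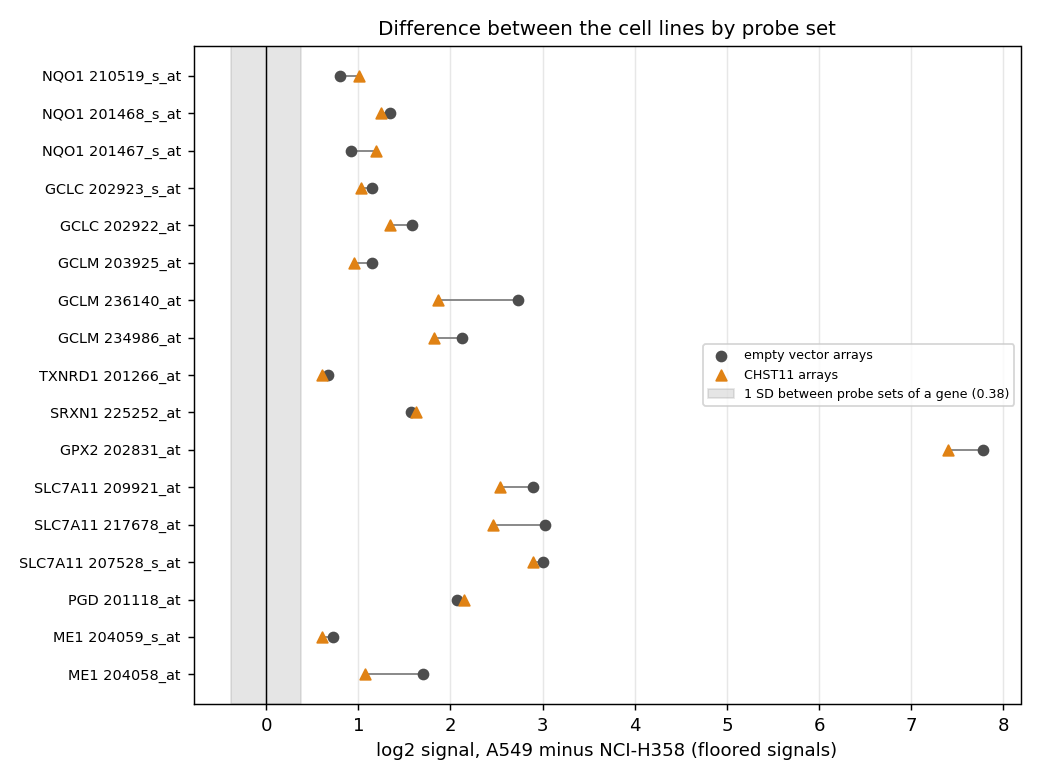
Difference in log2 signal between A549 and NCI-H358 for each measured probe set, circles for the empty vector arrays and triangles for the CHST11 arrays, with the grey band showing 1 SD (0.38) between probe sets of a gene. All 17 probe sets lie to the right of the band with both vectors, from 0.60 at TXNRD1 and ME1 to 7.78 at GPX2, whose NCI-H358 signals were under the filter.

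Across the probe sets, all 17 measured ones were called higher in A549 when every probe set was tested (21352 in all), beside 30.1% of all probe sets. At least 2-fold higher with both vectors were 12 of the 17, beside 10% of all probe sets. GPX2 202831_at and SLC7A11 207528_s_at passed the filter through A549 alone. In each of the 5 genes with more than 1 measured probe set (NQO1, GCLC, GCLM, SLC7A11 and ME1), the probe set with the highest mean signal gave the smallest line difference. The tested value of those 5 genes came from that probe set and lies at the low end of what the arrays gave. Levels were not compared between genes, since probe sets differ in brightness for reasons other than RNA amount. In bulk RNA, fewer cells with a high level and less RNA in every cell cannot be told apart.

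The wider NRF2 programme was read from lists of genes outside the 9. The lists, like the 9 genes, were chosen with earlier results known, and their counts are over genes measured in both lines, to be read beside the 28.4% called higher and 32.6% called lower among all such genes. Of 21 other NRF2 targets, which handle haem, iron, carbonyls and drug export, 20 were called higher in A549 and 0 lower, with a median log2 difference of 2.08. A further 3 (ABCC2, CYP4F3 and CYP4F11) passed the filter through A549 alone. AKR1B10 and AKR1C2, aldo-keto reductases, led with at least 401-fold and 197-fold. HMOX1, haem oxygenase, read 1236 and 1409 in A549 and 81.8 and 78.0 in NCI-H358, 16.5-fold apart (limma adjusted p = 4.14e-05). CBR3, a carbonyl reductase, had the smallest difference among those called, log2 0.63, and TRIM16L (log2 0.05, limma adjusted p = 0.669) was not called.

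Neither NFE2L2 nor KEAP1 was called. NFE2L2, which encodes NRF2, read 1019 and 1016 in A549 and 1098 and 1371 in NCI-H358 (log2 difference -0.27, SE 0.12, limma adjusted p = 0.1). KEAP1 read 319 and 354 against 318 and 284, so that the lines nearly met (log2 0.16, SE 0.11, limma adjusted p = 0.269). Of the 10 regulators, 3 were called higher in A549 and 4 lower, close to the 28.4% and 32.6% of all genes, with a median of -0.27. SQSTM1, the autophagy receptor p62 that binds KEAP1 and is itself an NRF2 target, was 3.06-fold higher in A549, and BTRC, a ubiquitin ligase subunit, 1.31-fold. MAFF and MAFG, small MAF proteins that pair with NRF2 on DNA, were 3.26-fold and 1.44-fold higher in NCI-H358.

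Among 19 other glutathione genes, 13 were called higher in A549 and 3 lower, beside 28.4% and 32.6%, with a median of log2 0.90. GSTM4 and GGT1 passed the filter through A549 alone. GLRX, glutaredoxin, was 4.84-fold higher in A549 and GSTA4, a glutathione transferase, 3.82-fold. GSR, which regenerates reduced glutathione with NADPH, read 981 and 905 in A549 and 436 and 460.4 in NCI-H358, 2.10-fold apart (limma adjusted p = 0.000972). Unlike GPX2, 3 other glutathione peroxidases were higher in NCI-H358. The difference was 2.53-fold for GPX1, 5.94-fold for GPX3 and 1.66-fold for GPX4, while GPX8 was higher in A549 (log2 1.61).

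Of 12 other measured genes linked to NADPH supply, 7 were called higher in A549 and 3 lower, beside 28.4% and 32.6%. Their median was log2 0.62. Not all of these genes make NADPH themselves, so the count is not one of NADPH sources. The non-oxidative pentose phosphate enzymes TALDO1 and TKT were 2.66-fold and 2.01-fold higher in A549. RPIA, the ribose phosphate isomerase of the same pathway, was 2.05-fold higher in NCI-H358, and NNT, the mitochondrial transhydrogenase, 1.69-fold.

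In the remaining thioredoxin system 4 of 7 genes measured in both lines were called higher in A549 and 1 lower, beside 28.4% and 32.6%. TXNIP and PRDX2 passed the filter through NCI-H358 alone. PRDX3, a mitochondrial peroxiredoxin, was 2.22-fold and PRDX1, a cytosolic one, 1.43-fold higher in A549. The 1 gene called lower was PRDX6, also a peroxiredoxin, 1.44-fold higher in NCI-H358 (limma adjusted p = 0.00775). TXN, thioredoxin itself, differed 1.22-fold (log2 0.29, limma adjusted p = 0.0417 over genes and 0.051 over probe sets). TXNIP, which binds and inhibits thioredoxin, read 15.4 and 21.1 in A549 and 1026 and 895 in NCI-H358, at least 35.5-fold higher in NCI-H358. PRDX2, another peroxiredoxin, read 19.5 and 25.5 in A549 and 2962 and 3101 in NCI-H358 at its brightest probe set, at least 112-fold apart. Its other 3 measured probe sets gave log2 differences of -1.01, -1.16 and -0.11, so the size for PRDX2 was not settled.

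**Figure D3:**
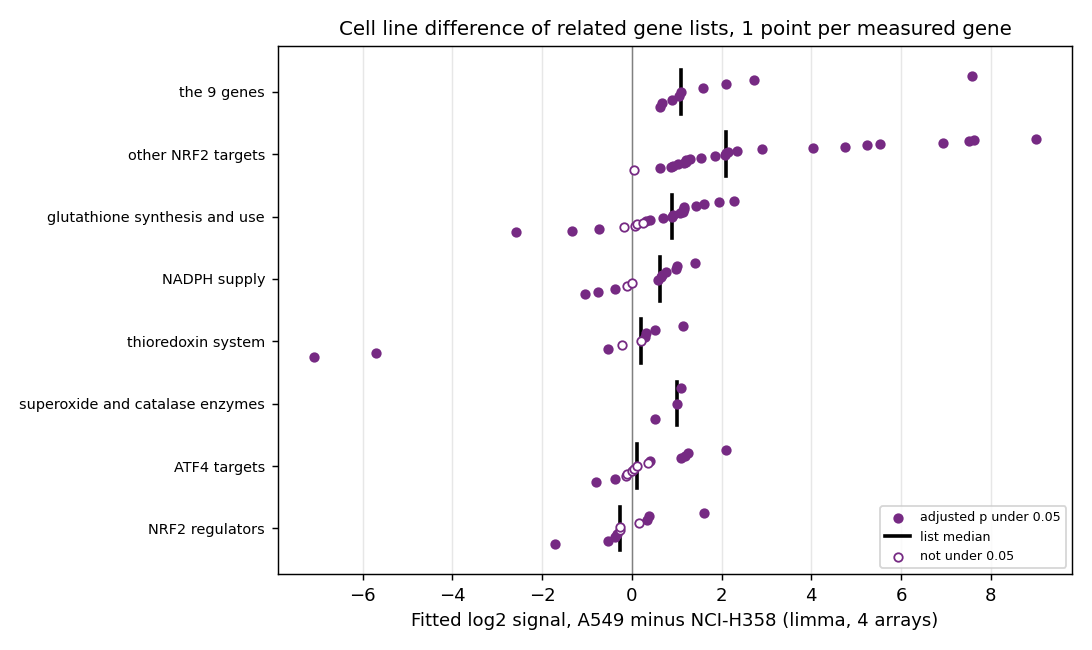
Fitted log2 difference between A549 and NCI-H358 for each measured gene of the 9 and of 7 related lists, filled where the limma adjusted p was under 0.05 and open where not; black bars are list medians. The 9 genes and 23 of 24 other NRF2 targets are filled and to the right of 0, while the regulators lie on both sides with a median of -0.27; GPX2 and 3 of the other NRF2 targets were under the filter in NCI-H358.

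The CHST11 vector left the 9 genes within 1.5-fold of the empty vector in both lines. In A549 0 of 9 genes passed that size, where 1.21% of all measured genes did, and in NCI-H358 0 of 8, where 1.19% did. With both lines as replicates of the vector contrast, limma called 0 of the 9 and 0 of 12288 genes (0%). The lowest adjusted p was 1, and a trend in eBayes left the count at 0. At an unadjusted p under 0.05 the fit had 373 genes (3.04%) and 0 of the 9. CHST11 itself was not called, though 219634_at differed by log2 1.41 in A549 and 2.26 in NCI-H358. The fit thus missed a known difference, and its 0 cannot show that the vector left the 9 genes unchanged. Fitted log2 ratios of the 9 genes, CHST11 minus empty vector, lay between -0.13 for SRXN1 (SE 0.09) and 0.12 for GCLM (SE 0.10).

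Within A549, ratios of the 17 measured probe sets ran from log2 -0.38 to 0.10, and 4 lay beyond the SD of 0.158 between probe sets of a gene. The share of all probe sets beyond it was not counted. Over all genes measured in A549 the ratios had an SD of 0.18, so the 4 are not shown to stand out. All 4 were lower with CHST11: SLC7A11 at 217678_at (-0.38) and 209921_at (-0.27), GCLM at 236140_at (-0.31) and GPX2 (-0.25). The other 2 GCLM probe sets were at 0.03 and the third SLC7A11 probe set at -0.08. Of the 9 genes, 6 were below 0 in A549, against 45.3% of all measured genes. These are single arrays, so no test was possible within a line.

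In NCI-H358, 15 of the probe sets were measured and ran from log2 -0.17 to 0.57, 6 of them beyond the SD of 0.173. Here too the share of all probe sets was not counted, and the ratios of all measured genes had an SD of 0.195. The 6 are thus not shown to stand out. Probe sets of 1 gene are not separate evidence. Each of those 6 was higher with CHST11. Just inside the SD, NQO1 at 210519_s_at and 201467_s_at and SRXN1 were lower, at -0.17, -0.17 and -0.15. All 3 GCLM probe sets were among the 6, at 0.22, 0.33 and 0.56. The rest were ME1 at 204058_at (0.57), GCLC at 202922_at (0.28) and SLC7A11 at 217678_at (0.18). The remaining ME1 and GCLC probe sets were at 0.12 and 0.02. Of the 8 genes measured in NCI-H358, 6 were above 0, against 50.7% of all measured genes. Their median ratio was log2 0.03, and that of the 21 other NRF2 targets measured there was -0.03. NFE2L2 at its brightest probe set, 201146_at, had a log2 ratio of 0.32 in NCI-H358 and 0.00 in A549. A dimmer measured NFE2L2 probe set, with signals of 47.3 to 55.1, was at -0.09 in NCI-H358 and 0.14 in A549. The direction for NFE2L2 was therefore not settled.

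The brightest probe sets of 4 genes, SLC7A11, GCLC, ME1 and TXNRD1, were lower with CHST11 in A549 and higher in NCI-H358, out of 8 measured in both lines, against 23.9% of all genes measured in both. Whether the response differed between lines was not tested, since each line had 1 array per vector.

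**Figure D4:**
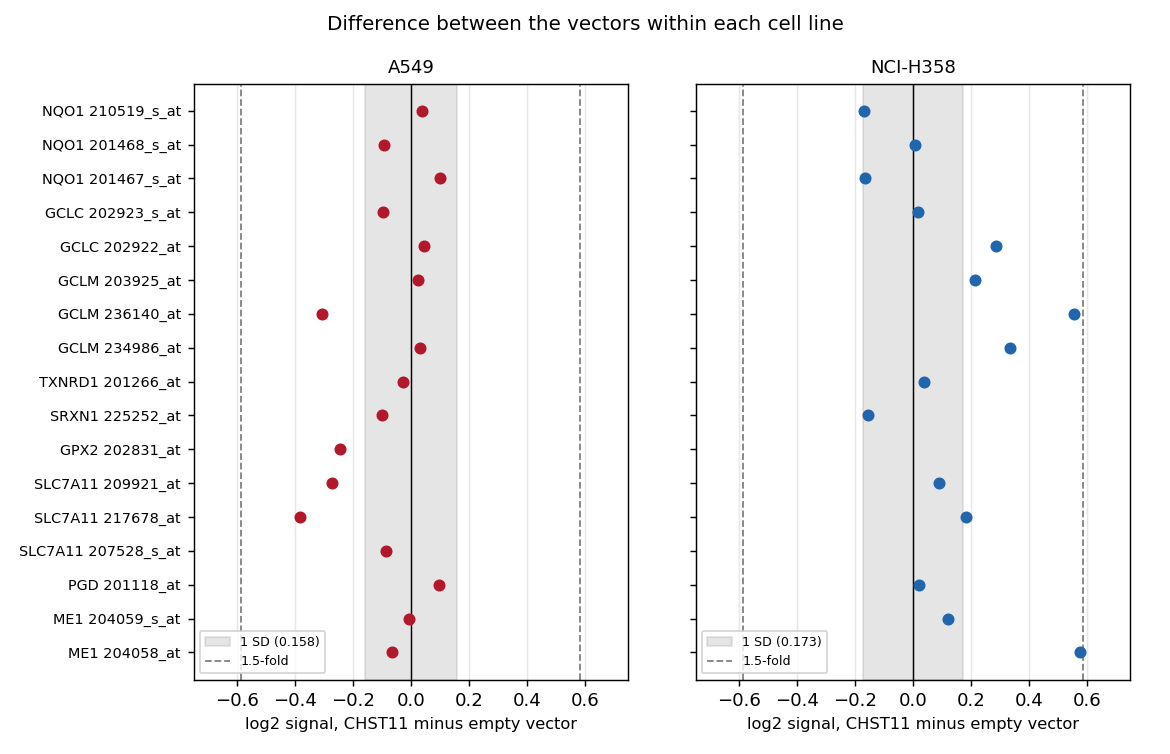
Log2 ratio of CHST11 to empty vector for each measured probe set, A549 on the left and NCI-H358 on the right, with the grey band showing 1 SD between probe sets of a gene (0.158 and 0.173) and dashed lines at 1.5-fold. No probe set passes 1.5-fold; in A549 the 4 points outside the band lie to the left and in NCI-H358 the 6 outside it lie to the right.

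To place the 9 genes among all others, the 4 log2 values of each gene were centred on their own mean and compared with the mean profile of the 9 by root mean square distance. The nearest genes outside the lists were DPYSL5 (0.0246), PTPN20 (0.0275), SEC23IP (0.0277), MYRF (0.0384) and IL15 (0.0387). DPYSL5 and PTPN20 were under the floor in NCI-H358, at signals of 13.2 and 13.2 and of 4.23 and 3.64, so the floor sets their distances. PGD was the nearest of the 9 to their own mean, at 0.0668, and GPX2 the farthest, at 2.78. With 4 arrays this likeness reflects little more than a line difference near log2 2 in floored signals. GPX2, at log2 7.59, raised that mean profile, while the median line difference of the 9 was log2 1.09.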

How the data were processed

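The authors' deposited values are linear intensities, made with MAS5 per the submitters' processing notes. The scaling target, detection calls and any further step are not stated in the labels or notes, and a further step could compress differences of dim genes. Each of the 4 arrays is 1 group from the labels. Intensities were floored at 16.14, the 50th percentile, and log2 was taken. A gene was represented by its brightest single-symbol probe set, and genes reaching 27 on at least 1 array were tested, 12288 in all. limma 3.58.1 in R 4.3.3 was fitted with terms for cell line and vector (1 residual degree of freedom, prior 3.53), with Benjamini-Hochberg adjustment over all genes tested, and was checked on simulated data. For folds, signals of the dimmer line under 27 were set to 27, which makes the fold a lower bound.

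Within a line there was no replicate and no test. The SD of log2 ratios between probe sets of a gene (5117 genes in A549, 5150 in NCI-H358) gauged measurement scatter only. Named genes were the 9, the checks of vector, line and cell type, NFE2L2, KEAP1, TXN, GSR and HMOX1, the 2 highest and 2 lowest of each list by line difference and the 5 nearest profiles. GPX1, GPX4, GPX8, PRDX1, PRDX6, ABCC2, CYP4F3, CYP4F11, GSTM4 and GGT1 were added after the values were seen. So were the counts over genes measured in both lines (27 reached on an array of each). The 9 genes and the lists were chosen with earlier results of these data known. Genes of the lists without a single-symbol probe set were not analysed here. Alternatives were other normalizations, floors, filters, probe set rules and models, and leaving out each array. Tables and plots used Python 3.11.15, pandas 2.3.3 and matplotlib 3.10.9.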

Additional observations from a re-analysis of the deposited data

Results flagged for a closer look

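Of the 9 genes, 8 were measured in both lines. In 3 of them every measured probe set moved one way with CHST11 in A549 and the other way in NCI-H358. The share of all genes that did so was not counted, and TXNRD1 had only 1 measured probe set. At the brightest probe set the log2 ratio of SLC7A11 was -0.27 in A549 and 0.09 in NCI-H358, that of ME1 -0.01 and 0.12, and that of TXNRD1 -0.03 and 0.04. The difference between the lines was not tested, and apart from SLC7A11 in A549 all of these values were within 1 SD between probe sets of a gene (0.158 in A549 and 0.173 in NCI-H358). The other measured ME1 probe set, 204058_at, was at 0.57 in NCI-H358 and -0.07 in A549.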

How the results depend on the processing

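The 9 genes were called higher in A549 under each normalization, both other floors, the stricter filter, eBayes with a trend, the cell line term alone, and probe sets as the unit. With no filter 3 were called, and 952 of all genes were called higher and 986 lower. The cause was not tested. With the median of probe sets 8 were called, since PGD then fell under the filter, and the log2 difference was 3.89 for GPX2 and 0.32 for TXNRD1. Probe sets as the unit gave 6417 calls higher and 7070 lower. Leaving out each array, with the cell line term alone and the lone array assumed to vary like the other line, called 9 each time, with 2559 to 3070 genes higher and 2771 to 3395 lower in all. At 4-fold, 3 of the 9 and 455 of all genes were higher in A549 with both vectors. None of the 9 passed 1.5-fold between vectors under any setting run. Over all genes, the count past the size in A549 and NCI-H358 was 57 and 45 when only signals above the 75th percentile counted as measured, 75 and 82 with the median of probe sets, and 13 and 4 at 2-fold. The looser core TGANNNNGC was present in 41.8% of windows and for 6 of the 8 genes.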

Other observations

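Catalase and the cytosolic superoxide dismutase, both measured in both lines, were called higher in A549. CAT, catalase, read 1152 and 1175 in A549 and 560.4 and 595 in NCI-H358 (2.01-fold, limma adjusted p = 0.000837), and SOD1, the cytosolic superoxide dismutase, differed by log2 0.53 (limma adjusted p = 0.0106). SOD2 passed the filter through A549 alone, with 37.5 and 35.6 in A549 and 16.8 and 17.4 in NCI-H358. These values come from its only measured single-symbol probe set, 1566342_at, which was dim and does not settle the level of SOD2. SLC7A11 is also a target of ATF4, the factor of amino acid stress. Of 13 measured genes, ATF4 and its targets, 5 were called higher in A549 and 2 lower, beside 28.4% and 32.6% of the genes measured in both lines, with a median of log2 0.12. ASNS, asparagine synthetase, was 4.26-fold and SLC7A5, an amino acid transporter, 2.38-fold higher in A549, while DDIT3 was 1.74-fold and SHMT2 1.30-fold higher in NCI-H358. ATF4 itself had a log2 difference of 0.04 (limma adjusted p = 0.723).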
